A study of Oryza sativa Japonica Group with 8 samples.

Results

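The rice annotation used for these leaf libraries holds 2396 loci, of 37869 in the gene table, whose description includes a non-protein coding transcript. They were taken by that phrase alone, whatever their values, and 1 further locus with the phrase was left out by the same rule. In 2189 of them every annotated transcript is non-coding (non-coding only loci), and in the other 207 a non-coding transcript is annotated beside protein-coding ones (mixed loci). Leaves of OsGRP3 overexpressing plants (OX), OsGRP3 knock-down plants (KD) and non-transgenic plants (NT) were sequenced to find RNAs that change with the level of OsGRP3, a glycine-rich RNA-binding protein. By the labels the plants were 4 weeks old, grown in soil with no treatment (a figure legend of the study gives an age of 2 weeks), and each group had 2 libraries, 8 in all. OX plants carry the OsGRP3 coding sequence under the OsCc1 promoter in cultivar Nakdong, and their controls (NT Nakdong) are wild-type Nakdong plants. KD plants carry an inverted repeat of a fragment of the OsGRP3 3' UTR under the OsGOS2 promoter in cultivar Dongjin, and their controls (NT Dongjin) are wild-type Dongjin plants. The lines were homozygous with a single insertion, and which of the selected lines was sequenced is not given in the sources used here. The study calls the libraries of a group biological replicates, and whether each came from separate plants or a pool is not given, so p-values measure the spread between these libraries.

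Non-coding transcripts in plants include long RNAs made between genes, natural antisense RNAs made from the strand opposite a gene, precursors of small RNAs, and copies of a coding gene's RNA that keep an intron or lack a full reading frame. Antisense RNAs can pair with the sense RNA and alter its stability or translation; in rice the phosphate transporter gene PHO1;2 is a known case. By the labels the libraries were made with a poly(A)-based, strand-specific mRNA kit, so RNAs without a poly(A) tail were largely outside the measurement. The methods of the study name another TruSeq kit, while the file headers show strand-aware counting, and every antisense value rests on the strand being kept.

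The deposited estimated counts summed to between 25836946 and 38940899 a library. OsGRP3 itself had 2047 and 2736 TPM (StringTie's level per length, scaled to the same total in every library) in OX, against 1774 and 1687 TPM in NT Nakdong, and 497 and 428 TPM in KD, against 722 and 711 TPM in NT Dongjin. In estimated counts, not scaled to the library totals, OsGRP3 had 44232 and 53189 in OX, against 37729 and 45395 in NT Nakdong. In KD it had 10772 and 8745 counts, against 10625 and 13932 in NT Dongjin. These unscaled counts overlapped in both comparisons, so how far OsGRP3 differed depends on the measure. Leaf markers were abundant in every library, and the 3 markers of root, meristem and flower summed to 24 to 37 counts. Both NT Dongjin libraries stood apart. Coverage of the first exon relative to the last, as a log2 ratio over 21 non-coding only transcripts, had a median of -0.33 and -0.22 in NT Dongjin, and between -1.83 and -1.14 in the other 6 libraries. The 6 leaf markers summed to 69124 and 68231 TPM in NT Dongjin, and to between 82428 and 97331 TPM elsewhere. They did not move together. Rubisco activase (Os11g0707000) had 32879 and 32401 TPM in NT Dongjin, against 5594 to 7215 TPM elsewhere, and each of the others was lower in NT Dongjin. How far this difference between libraries enters any KD result was not tested, and within this series it cannot be told apart from the genotype.

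Most of the non-coding only loci gave no read. A count of 0 in all 8 libraries was found for 1139 of 2189 (52.0%), against 6362 of 35473 other genes (17.9%), and 0 over all 8 libraries allows up to 0.0123 CPM (counts scaled to the library total). A locus is called detected here when it had at least 10 counts in both libraries of a group. By that measure 412 non-coding only loci (18.8%) were detected in OX and 440 (20.1%) in NT Nakdong, and 416 were detected in KD and 385 (17.6%) in NT Dongjin. The share of other genes detected was 59.8% in OX, 61.9% in NT Nakdong, 59.9% in KD and 55.7% in NT Dongjin. The 315 non-coding only loci detected in all 8 libraries had a median level between 7.72 and 8.77 TPM, against 9.47 to 12.7 TPM for other genes detected in all 8, but the same minimum count asks for a higher TPM of a shorter locus. Mixed loci were nearly always detected, in 197 cases in OX, 200 in NT Nakdong, 197 in KD and 192 in NT Dongjin. Non-coding only loci were shorter than other genes (median 560 against 1415 bases), and 57.7% had a single exon, against 28.3% of other genes. They held 0.425% and 0.474% of all counts in OX, 0.431% and 0.420% in NT Nakdong, 0.449% and 0.465% in KD and 0.306% and 0.300% in NT Dongjin. The NT Dongjin shares thus lay below those of the other 6 libraries.

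Detection followed position in the annotation. Of the non-coding only loci, 1083 lie on the plus strand and 1106 on the minus strand, and 1058 (48.3%) share exonic bases with a gene on the opposite strand, which holds for 28.2% of other genes. The shared stretch had a median of 523.5 bases and covered a median of 87.7% of the locus. Only 74 of these 1058 were detected in OX (6.99%), 81 in NT Nakdong, 79 in KD and 81 in NT Dongjin. Loci between genes were detected more often: 134 in OX, 136 in NT Nakdong, 129 in KD and 109 in NT Dongjin of 385 within 1 kb of another gene, and 171 in OX, 186 in NT Nakdong, 178 in KD and 155 in NT Dongjin of 641 farther away. A further 71 overlap the span of a gene on the same strand and are counted here as in an intron on the same strand. Whether each lies within an intron, or shares exonic bases on that strand, was not checked. Reads from RNA of that gene, unspliced or not, cannot be told apart from reads of the locus. Of these 71, 24 were detected in OX and 28 in NT Nakdong, and 21 were detected in KD and 35 in NT Dongjin, the only position class in which NT Dongjin stood above each of the other groups. The last 34 overlap the span, but no exon, of a gene on the opposite strand, and are counted as in an intron on the opposite strand. Of these, 9 were detected in OX, NT Nakdong and KD and 5 in NT Dongjin.

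**Figure D1:**
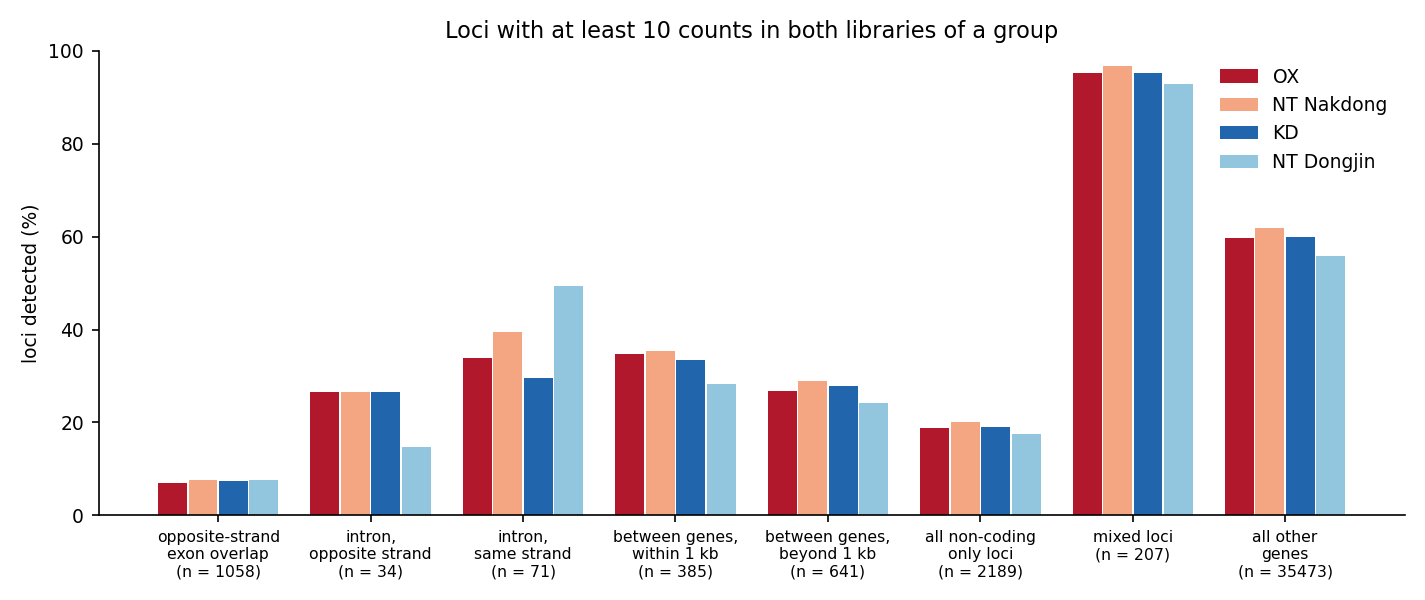
Share of loci (y axis, percent) with at least 10 counts in both libraries of a group, by position of the non-coding only loci and for mixed loci and all other genes (x axis, n in brackets); bars are the 4 groups. Loci with opposite-strand exon overlap sit near 7% in every group, and the same-strand intron class peaks at 49.3% in NT Dongjin.

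The strand of the reads was checked in 321 overlapping pairs whose partner on the other strand averaged at least 20 TPM. The non-coding locus was at 0 in 70.7% and 75.4% of them in OX, 79.4% and 80.1% in NT Nakdong, 80.1% and 75.1% in KD and 81.6% and 72.0% in NT Dongjin. Summed over the 321 pairs, the non-coding level was between 0.194% and 0.345% of the partner level in the 8 libraries. These sums are weighted to the most abundant partners and give no limit for a single pair.

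Detection also differed by the transcript number that the annotation appends to each identifier. Of 1553 non-coding only loci whose first transcript is numbered 00, 92 (5.92%) were detected in all 8 libraries, against 223 of 636 (35.1%) numbered 01 or above. The difference was seen among loci with opposite-strand exon overlap (1.35% of 891 numbered 00, 27.5% of 167 numbered 01 or above) and among those without (12.1% of 662, 37.7% of 469). What the number stands for is not given in the sources used here.

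Loci within 1 kb of a gene were sorted by strand and by the side of the nearest gene on which they lie. The largest set, 145 loci, lay on the same strand beyond the 3' end of that gene, at a median distance of 215 bases, and 45 of them (31.0%) were detected in all 8 libraries. In the other 3 arrangements the share was 21.5% of 65 (same strand, before the 5' end), 23.2% of 99 (opposite strand, beyond the 3' end) and 19.7% of 76 (opposite strand, before the 5' end). In the 66 same-strand 3' pairs with both genes tested, the log2 fold changes of locus and neighbour went together across pairs, with Pearson's r = 0.63 and Spearman's rho = 0.58 for KD over NT Dongjin and r = 0.60 and rho = 0.41 for OX over NT Nakdong. In the 20 same-strand pairs before the 5' end, r was 0.73 and rho 0.60 for KD over NT Dongjin, and r was 0.86 and rho 0.27 for OX over NT Nakdong. In the 35 opposite-strand 3' pairs, r was 0.12 and rho 0.03 for KD over NT Dongjin, and r was -0.25 and rho 0.03 for OX over NT Nakdong. The 11 opposite-strand pairs before the 5' end had r = 0.06 and rho = -0.04 for KD over NT Dongjin. For OX over NT Nakdong they had r = 0.28 and rho = 0.41. Some neighbours are themselves non-coding loci, so some pairs enter once from each side. In the opposite-strand 3' pairs these are Os05g0503500 with Os05g0503650 and Os06g0662100 with Os06g0662150. Os02g0617900 with Os02g0618000 and Os08g0546533 with Os08g0546600 enter both same-strand sets. These correlations are descriptions across loci, which share the same libraries and a single fit. On the same strand, an RNA of the neighbour that extends past its annotated ends cannot be told apart from a separate transcript.

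The counts were concentrated in few loci: 10 loci held 36.7% to 39.6% of the non-coding only counts in each library. The largest count in every library belonged to Os06g0686700 (chr6:28639438-28641587, IRGSP-1.0, minus strand, 3 exons), with 11855 and 13532 counts in OX, 11609 and 15362 in NT Nakdong, 13885 and 14229 in KD and 7381 and 9640 in NT Dongjin. It held at least 8.93% of the non-coding only counts in every library. Its level per length was 218 and 276 TPM in OX, 221 and 226 TPM in NT Nakdong, 258 and 281 TPM in KD and 198 and 197 TPM in NT Dongjin.

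Per length, Os06g0199300 (chr6:5044982-5045310, minus strand, single exon) was the highest by its mean over the 8 libraries. It had 482 and 599 TPM in OX, 435.0 and 431 TPM in NT Nakdong, 502 and 515 TPM in KD and 490.0 and 496 TPM in NT Dongjin. In TPM both NT Nakdong libraries were thus the lowest, and KD lay close to NT Dongjin. In CPM NT Dongjin was the lowest, with 120 and 122, against 129 and 128 in NT Nakdong and 151 and 160 in KD. By the test, which used counts, KD was higher than NT Dongjin by 0.40 ± 0.10 on the log2 scale, under 2-fold (SE, edgeR adjusted p = 0.00633). The ranking of the groups thus depends on the measure. Os12g0115050 (chr12:733811-734096, plus strand) had 651 and 789 TPM in OX, 527 and 533 TPM in NT Nakdong, 754 and 579 TPM in KD and 32.0 and 28.3 TPM in NT Dongjin. The NT Dongjin libraries were thus far below the other 6, and a neighbour, Os12g0115000, which encodes a lipid-transfer protein on the same strand, had 8717 and 5275 counts in KD, against 246 and 339 counts in NT Dongjin. The nearest gene is another, Os12g0114900, 10 bases away on the opposite strand. It is itself a non-coding locus and was not tested. Os04g0460900 (chr4:23004695-23005301, minus strand, beyond 1 kb from any gene) had 8511 and 7968 counts in OX, 7501 and 9115 in NT Nakdong, 8032 and 8338 in KD and 4036 and 5136 in NT Dongjin. Os02g0257400 (plus strand, 193 bases beyond the 3' end of a rhodanese-domain gene) had 105 counts in the first NT Dongjin library and 1 count in the second, so these libraries disagreed, and at least 1199 counts in each of the other 6. These 10 non-coding only loci were picked after their values were seen.

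**Figure D2:**
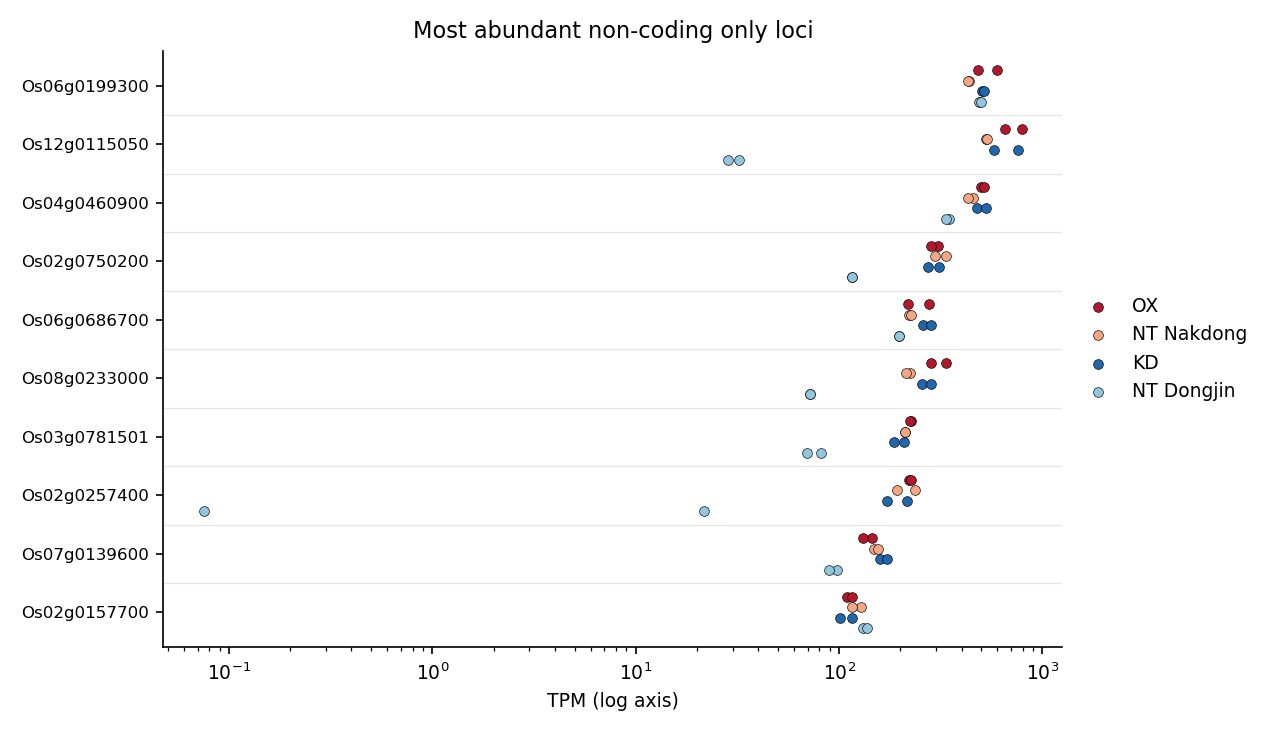
Level in TPM (x axis, log scale) of the 10 non-coding only loci with the highest mean over the 8 libraries (rows); each point is a library, coloured by group. Os06g0199300 lies between 431 and 599 TPM in all 8 libraries, and Os12g0115050 and Os02g0257400 fall to 32.0 TPM or less in NT Dongjin.

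Across all 2396 loci the 10 highest TPM values belong to mixed loci, among them 5 photosynthesis genes of the leaf. The Rubisco small subunit gene Os12g0291100 had 25852 and 23779 TPM in OX, 25848 and 23939 TPM in NT Nakdong, 29545 and 34942 TPM in KD and 12824 and 12279 TPM in NT Dongjin. The Rubisco activase gene Os11g0707000, whose product keeps Rubisco in its active state, had 6892 and 5955 TPM in OX, 7215 and 6776 TPM in NT Nakdong, 5648 and 5594 TPM in KD and 32879 and 32401 TPM in NT Dongjin. The small subunit was thus lowest, and the activase highest, in NT Dongjin. The other 8 were Os01g0639900 (carbonic anhydrase), Os08g0435900 and Os01g0720500 (chlorophyll-binding proteins of the light-harvesting antenna), Os06g0264800 (described as like a threonine endopeptidase), Os11g0116000 (lipid transfer), Os12g0189300 (a pyruvate or phosphoenolpyruvate kinase domain), Os03g0284100 (the clock-related PRR73) and Os03g0390600 (histone H3).

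In the mixed loci the files divide the level among the transcripts of a locus, an estimate where transcripts share exons. Over the 190 mixed loci detected in all 8 libraries, the median share of locus TPM given to the non-coding transcripts was 6.75% and 8.25% in OX, 7.08% and 6.53% in NT Nakdong, 8.92% and 10.04% in KD and 5.11% and 4.15% in NT Dongjin. The non-coding transcripts held over 50% of the locus in 38 and 47 loci in OX, 45 and 39 in NT Nakdong, 50 and 48 in KD and 34 and 25 in NT Dongjin. In Os12g0291100 the non-coding transcript took 51.1% and 52.3% in OX, 53.3% and 52.0% in NT Nakdong, 59.7% and 61.1% in KD and 47.3% and 48.4% in NT Dongjin. In Os03g0284100 (PRR73) it took 76.5% and 76.9% in OX, 77.9% and 76.8% in NT Nakdong, 77.5% and 79.6% in KD and 57.2% and 58.5% in NT Dongjin. In both genes the files thus credit at least 47.3% of the level to the transcript annotated as non-coding.

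Between OX and NT Nakdong the non-coding share was higher in 10 of the 190 mixed loci and lower in 4, with groups that did not overlap and means at least 10 points apart. That is 7.37% of the mixed loci, where 10.5% of all 10862 transcripts of multi-transcript genes differed by the same rule (5.23% higher and 5.27% lower). Shares within a locus sum to its whole level, so over all transcripts rises and falls tend to balance. They thus give no background for the direction. The largest difference was in Os07g0448800, an aquaporin gene, where the share was 0.0507% and 0.06% in OX, against 50.4% and 45.3% in NT Nakdong, and was likewise near 0 in all 4 Dongjin libraries. In Os04g0397100, which encodes a ClpC-like protease subunit of the chloroplast, it was 52.0% and 57.8% in OX, against 14.3% and 12.3% in NT Nakdong. The KD libraries of that gene split, with 58.4% and 16.3%, so a difference of that size also occurred within a group. Between KD and NT Dongjin the share was higher in 52 loci and lower in 14, which is 34.7% of the mixed loci in all. Over all transcripts 34.9% differed (17.3% higher and 17.5% lower). In Os08g0254900, a glutamyl-tRNA reductase binding protein gene, it was 72.5% and 78.1% in KD, against 1.33% and 1.08% in NT Dongjin, and lay between 69.7% and 76.0% in the 4 Nakdong libraries. These shares were chosen for their size and were not tested.

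The comparison of OX with NT Nakdong asked which of these RNAs differed between plants with added OsGRP3 and their controls. Few did, and their share was close to that of all genes. Whether a difference follows from OsGRP3 or from the line was not tested. Of 729 non-coding loci with enough counts to test (527 non-coding only, 202 mixed), 7 were higher and 7 lower in OX by at least 2-fold at an adjusted p under 0.05 (edgeR quasi-likelihood test, Benjamini-Hochberg over all 24383 genes tested), which is 1.92%. Over all genes tested, 1.47% were called (0.619% higher and 0.853% lower). The CPM values of the groups did not overlap in 305 of the 729, where 44.8% of all genes had no overlap. Of the 14, 12 were non-coding only loci (6 higher, 6 lower) and 2 were mixed (1 higher, 1 lower). The median log2 fold change was 0.03 for non-coding only loci, -0.01 for mixed loci and 0 for all genes. At an unadjusted p under 0.05 with 2-fold, 19 were higher and 16 lower, where the share over all genes was 4.34% (1.74% higher and 2.6% lower).

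Of the 14 calls, 6 passed under every other filter, scaling and test they could enter and with any library left out, and all 6 lie on chromosome 11. Os11g0515700, Os11g0574333 and Os11g0605800 of these could not enter the filter of at least 10 counts in every library. The non-coding only locus Os11g0515700 (chr11:18493370-18494393, minus strand, beyond 1 kb from any gene) had 0 and 0 counts in OX, against 136 and 135 in NT Nakdong. It also had 154 and 127 counts in KD and 173 and 206 in NT Dongjin, so OX was the only group at 0. The level was at least 76.0-fold lower in OX than in NT Nakdong, with 3 counts taken as the floor over the OX group (adjusted p = 0.000118 by edgeR). Os11g0605800 (chr11:23375169-23376295, plus strand) had 0 and 4 counts in OX, against 102 and 187 in NT Nakdong, a ratio of 0.0165 with a 95% counting interval of 0.0045 to 0.0426 (exact binomial, which covers counting error only). It shares 422 bases with Os11g0605900 on the opposite strand, which had 1 and 2 counts in OX and 3 and 4 counts in NT Nakdong.

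Os11g0689800 (chr11:28031068-28032957, plus strand, single exon) had 48 and 50 counts in OX, against 594 and 795 in NT Nakdong, a log2 fold change of -3.53 ± 0.20 (SE, edgeR adjusted p = 3.22e-05). Its counts of 49 and 33 in KD and 43 and 44 in NT Dongjin were like those of OX, so NT Nakdong stood alone. Os11g0234300 (chr11:7125494-7127467, plus strand, 2 exons) had 62 and 80 counts in OX, against 482 and 656 in NT Nakdong, a log2 fold change of -2.71 ± 0.20 (edgeR adjusted p = 0.000157). It shares 1500 bases with Os11g0234200, a RING-type zinc finger gene on the opposite strand, which had 54 and 46 counts in OX and 37 and 46 counts in NT Nakdong.

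Os11g0234100 (chr11:7121653-7124770, plus strand, 3 exons) lies next to Os11g0234200, beyond its 3' end, and went the other way. It had 198 and 229 counts in OX, against 21 and 44 in NT Nakdong, a log2 fold change of 3.03 ± 0.32 (edgeR adjusted p = 0.00132). These neighbouring non-coding loci thus changed in opposite directions, while Os11g0234200 did not pass the test (log2 fold change 0.55, adjusted p = 0.596). Os11g0574333 (chr11:21588171-21589170, minus strand, 2 exons) had 179 and 235 counts in OX and 0 in each of the other 6 libraries. It was at least 164-fold higher in OX than in NT Nakdong, with 3 counts as the floor over the NT Nakdong group (edgeR adjusted p = 0.00245). Os11g0527250, also on chromosome 11, was seen only in OX too, with 39 and 17 counts, but did not pass the test (adjusted p = 0.0926).

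The other 8 calls were each lost under at least 1 other setting, and Os06g0165100, Os07g0531800 and Os11g0574333 fall outside the naming rule and were named after their values were seen. Os11g0677050 (chr11:27343675-27345005, minus strand) had 19 and 11 counts in OX, against 0 and 0 in NT Nakdong, and was at least 11.9-fold higher; in KD it had 239 and 266 counts, against 4 and 3 in NT Dongjin. It shares 1211 bases with Os11g0677000, a gene of the NB-ARC class that includes disease resistance receptors, on the opposite strand. Os07g0531800 had 21 and 14 counts in OX, against 0 and 0 in NT Nakdong, and its same-strand neighbour Os07g0531900 had 108 and 104 counts in OX, against 6 and 6 in NT Nakdong. Os06g0165100, counted as in an intron on the opposite strand, had 0 and 0 counts in OX, against 24 and 34 in NT Nakdong. Os08g0536350 had 723 and 914 counts in OX, against 369 and 571 in NT Nakdong (log2 fold change 1.11 ± 0.23). Os12g0404400 had 114 and 83 counts in OX, against 221 and 259 in NT Nakdong (-1.01 ± 0.20), and Os11g0526900 had 284 and 279 counts in OX, against 173 and 160 in NT Nakdong (1.02 ± 0.19). The 2 mixed loci were Os07g0523700, for ribosomal protein L44, with 2563 and 1577 counts in OX, against 1080 and 1378 in NT Nakdong, and Os03g0791700, for a protein kinase, with 230 and 128 counts in OX, against 499 and 620 in NT Nakdong. With NT Nakdong replicate 1 or 2 left out, 7 calls were made in each case, and without NT Dongjin replicate 1 or 2, 8 in each case. In a fit of only the 4 libraries compared, 14 were called, of which 10 were among the 14 here.

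**Figure D3:**
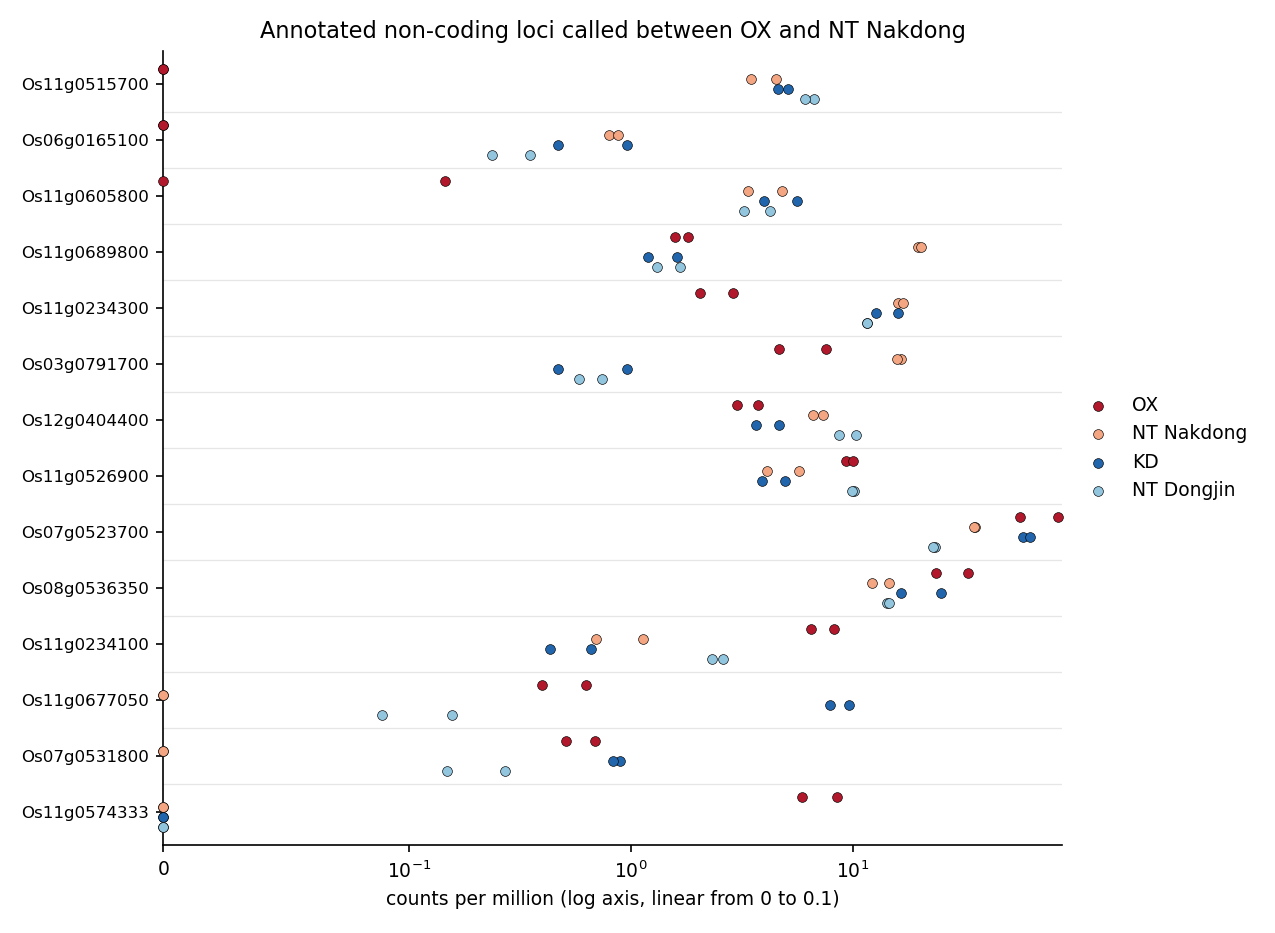
CPM (x axis, log scale that is linear from 0 to 0.1) of the 14 non-coding loci called between OX and NT Nakdong (rows, from the lowest to the highest log2 fold change); each point is a library, coloured by group. Os11g0515700 is at 0 in OX alone, and Os11g0574333 is above 0 in OX alone.

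The calls were uneven over the chromosomes. On chromosome 11, 8 of 46 tested non-coding loci were called (17.4%), against 6 of 683 on the other chromosomes (0.878%). All genes showed the same unevenness to a lesser degree, with 96 of 1411 called on chromosome 11 (6.80%) and 263 of 22972 elsewhere (1.14%). Chromosome 7 followed among all genes, with 63 of 1859 called (3.39%) and 2 of 44 non-coding loci. These shares are a description, since neighbouring loci are not independent.

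**Figure D4:**
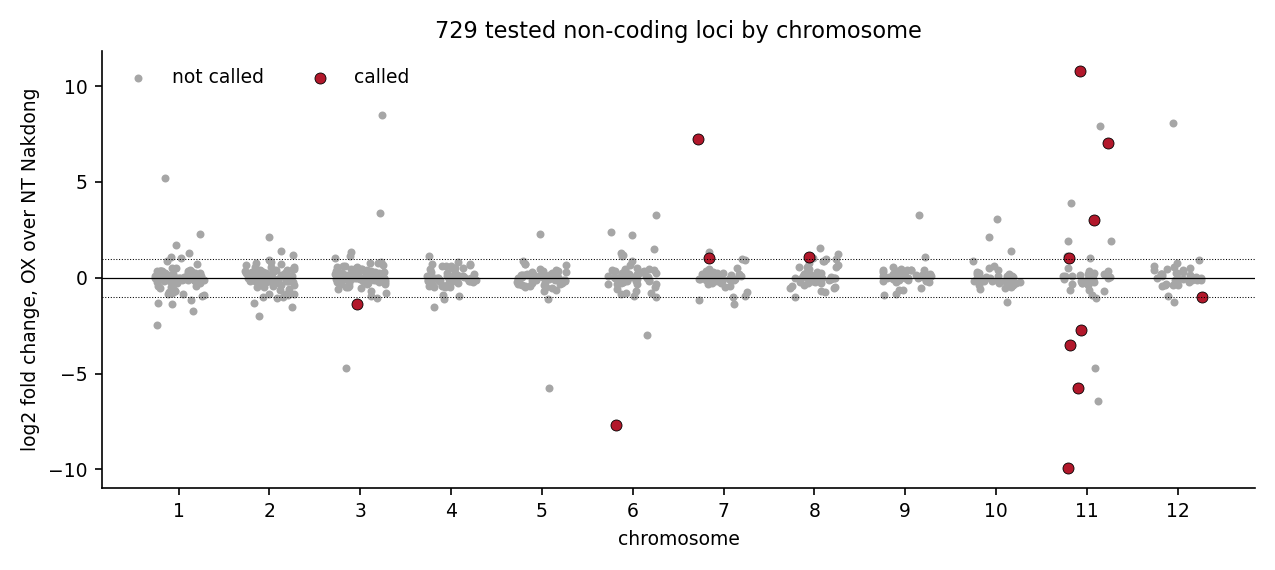
Log2 fold change of OX over NT Nakdong (y axis) for the 729 tested non-coding loci by chromosome (x axis, points spread sideways at random); red points are the 14 called, dotted lines mark 2-fold. Fitted values of loci at 0 in a group depend on the small count that the fit adds and are not sizes of effect. Chromosome 11 holds 8 of the 14.

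The comparison of KD with NT Dongjin asked the same for reduced OsGRP3. Here 207 of the 729 non-coding loci were higher and 91 lower in KD (edgeR, same rule), 40.9% in all, where 37.6% of all genes were called (23.8% higher and 13.8% lower). The CPM values of the groups did not overlap in 592 of the 729, where 82.3% of all genes had no overlap. Among non-coding only loci 166 were higher and 54 lower of 527, and among mixed loci 41 were higher and 37 lower of 202. The median log2 fold change was 0.71 for non-coding only loci, -0.03 for mixed loci and 0.14 for all genes. Against NT Nakdong in place of NT Dongjin, an alternative added after the data were seen that also changes the cultivar, 16 were higher and 12 lower in KD (all genes 4.4%, with 1.36% higher and 3.04% lower). Of the 207 loci higher than in NT Dongjin, 172 (83.1%) were less than 2-fold from NT Nakdong, and so were 84 of the 91 lower (92.3%). The shares over all genes were much the same, 79.5% of those called higher and 90.8% of those called lower. Like most genes called between KD and NT Dongjin, most of these loci thus had KD levels near those of NT Nakdong.

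The excess of higher non-coding only loci went with their length. Among transcripts of up to 500 bases the median log2 fold change of KD over NT Dongjin was 0.97 for 217 non-coding only loci and 0.94 for 646 other genes. From 500 to 1000 bases it was 0.80 for non-coding only loci and 0.87 for other genes, and from 1000 to 2000 bases 0.16 for non-coding only loci and 0.20 for other genes. Above 2000 bases it was -0.49 for non-coding only loci and -0.54 for other genes. The medians of the 2 kinds of locus were thus close within a length class, and both turned from higher to lower with length. The shares called were less alike: from 500 to 1000 bases 30.0% of non-coding only loci and 39.2% of other genes were called higher, and above 2000 bases 35.7% of non-coding only loci and 27.2% of other genes were called lower. These differences were not tested. In OX over NT Nakdong all 8 medians lay between -0.03 and 0.09. By position, 53 of 159 tested loci within 1 kb of a gene were higher in KD (33.3%) and 11 lower (6.92%). Farther away 73 of 209 were higher (34.9%) and 14 lower (6.70%). With opposite-strand exon overlap, 28 of 106 were higher (26.4%) and 15 lower (14.2%). In an intron on the opposite strand, 7 of 12 were higher and 1 lower. Over all genes 23.8% were higher and 13.8% lower. Only loci counted as in an intron on the same strand had more called lower than higher, with 5 higher and 13 lower of 41 tested, and a median of -0.96. The part of the coverage difference in these values was not tested.

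**Figure D5:**
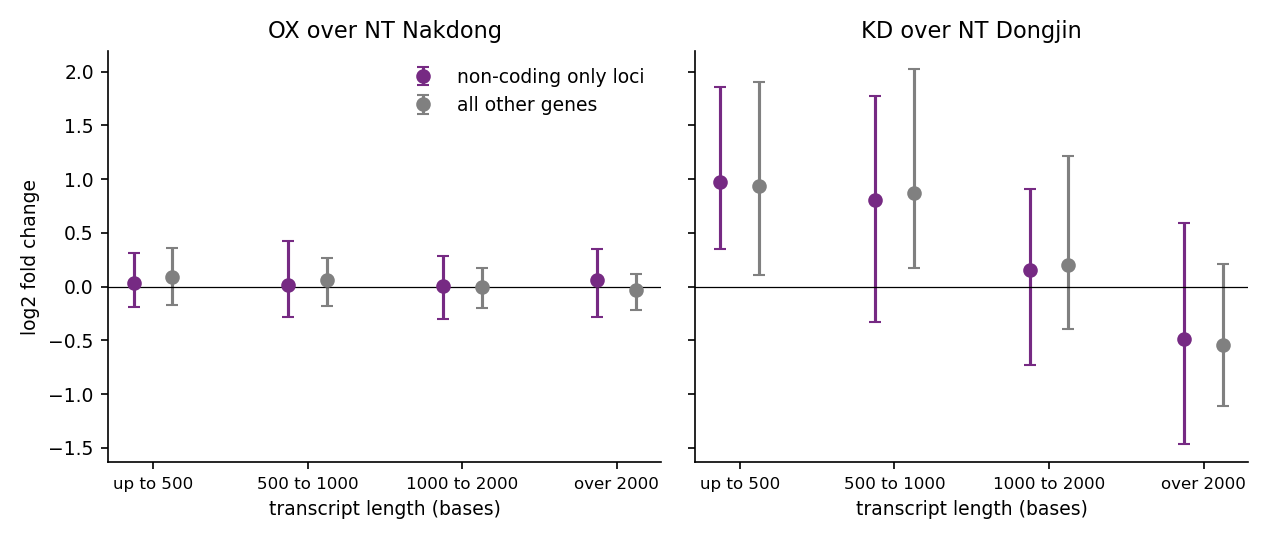
Median log2 fold change (y axis, points; bars are the quartiles over loci) by transcript length (x axis) for non-coding only loci and all other genes, in OX over NT Nakdong (left) and KD over NT Dongjin (right). In KD both kinds fall from about 1 below 500 bases to about -0.5 above 2000 bases, and in OX all medians lie near 0.

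The 6 loci named for their rise, those with the highest fitted log2 fold changes, had 0 to 5 counts in each NT Dongjin library and at least 35 in each of the other 6. Fitted values against 0 counts do not rank the size of a rise. Os04g0137201 (chr4:2485527-2485875, plus strand) had 480 and 241 counts in KD and 0 and 0 in NT Dongjin, at least 247-fold higher, and 357, 421, 492 and 580 counts in the 4 Nakdong libraries. The coding gene 256 bases before it on the same strand, Os04g0137100, had 221 and 88 counts in KD and likewise 0 and 0 in NT Dongjin. Os05g0514350 (chr5:25503077-25503453, minus strand) had 203 and 171 counts in KD and 0 and 0 in NT Dongjin, and its same-strand neighbour Os05g0514400 had 653 and 400 counts in KD and 0 and 0 in NT Dongjin. Os06g0132450 had 128 and 68 counts in KD and Os05g0368000 had 85 and 114 counts in KD, each with 0 and 0 counts in NT Dongjin. The neighbours of these loci thus shared their pattern where a neighbour was measured close by on the same strand. The 2 mixed loci of the 6 were Os01g0822900, for a lipid transfer protein, at least 260.5-fold higher in KD, with 0 and 0 counts in NT Dongjin, and Os06g0148200, for a GDSL lipase, with 4084 and 1256 counts in KD and 5 and 2 in NT Dongjin.

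The 6 loci named for their fall were Os03g0741050, Os09g0419100, Os06g0131400, Os02g0742000, Os03g0197050 and Os04g0603601. Os03g0741050 (chr3:30403047-30405978, plus strand, 2932 bases in a single exon) had 55 and 25 counts in KD, against 525 and 639 in NT Dongjin (log2 fold change -3.81 ± 0.27, edgeR adjusted p = 4.2e-06), and 44, 45, 32 and 39 counts in the Nakdong libraries. Os06g0131400 had 328 and 210 counts in KD, against 1919 and 2551 in NT Dongjin (-2.99 ± 0.18). Os03g0197050 and Os04g0603601 are counted as in an intron on the same strand. The first had 47 and 78 counts in KD, against 361 and 452 in NT Dongjin. The second had 32 and 43 counts in KD, against 218 and 262 in NT Dongjin. In all 4 the KD values sat beside those of the Nakdong libraries, and NT Dongjin alone was high. The mixed loci Os02g0742000, with a transcription elongation factor domain, and Os09g0419100 fell by 2.90 and 3.42 on the log2 scale.

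A smaller set, 14 of the 729 tested loci, was higher in KD than in both NT groups by the same rule, comparisons that share the KD libraries, and none was lower than both. Over all 24383 genes, 169 were higher and 53 lower than both. The share higher than both was thus larger among the non-coding loci than over all genes, a difference that was not tested. Os04g0399200 (chr4:19716632-19716949, plus strand, 318 bases, 1 exon) had 1205 and 1324 counts in KD and 2 counts in each of the other 6 libraries. Against NT Dongjin that is a ratio of 650 with a 95% counting interval of 254 to 2388 (edgeR adjusted p = 8.13e-08). The gene that ends 4 bases before it on the same strand did not share this: Os04g0399000, for ribosomal protein S27, had 1279 and 1295 counts in KD, against 427 and 538 in NT Dongjin, and 993 to 1327 counts in the Nakdong libraries. Os03g0375833 had 77 and 50 counts and Os08g0517150 had 63 and 34 counts in KD, and each was at 0 in the other 6 libraries. Os03g0405200 had 1058 and 1005 counts in KD, against 205 and 271 in NT Dongjin, and 1 to 10 counts in the Nakdong libraries. Os01g0610050 had 895 and 976 counts in KD, against 124 and 199 in NT Dongjin, and fewer than in NT Dongjin in each Nakdong library. Os05g0475550 had 308 and 333 counts in KD, against 42 and 58 in NT Dongjin, and 0 to 11 counts in the Nakdong libraries. The other loci of this set were Os11g0195750, Os06g0259901, Os08g0358050, Os12g0281966, Os07g0531800 and Os11g0677050 and the mixed loci Os09g0538000 and Os03g0832800. These loci were singled out after their values were seen.

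Presence by cultivar was rare. Only 3 non-coding loci (of 38 genes in all) had at least 10 counts in all 4 Nakdong libraries and 0 in all 4 Dongjin libraries. Os12g0257450 (chr12:8852645-8853021, plus strand) was the strongest, with 1319 and 1623 counts in OX and 946 and 1446 in NT Nakdong. Os01g0965201 had 186 and 195 counts in OX and 136 and 232 in NT Nakdong, and Os12g0272500 had 14 and 11 counts in OX and 26 and 11 in NT Nakdong. The reverse pattern held for Os12g0281966 alone (of 18 genes in all), with 252 and 294 counts in KD and 50 and 66 in NT Dongjin. That is 0.0417% of the non-coding loci, against 0.0475% of all genes. By group, 11 non-coding loci (of 593 genes in all) were at 0 only in NT Dongjin, 0.459% of the non-coding loci, against 1.57% of all genes. Os11g0515700 alone (of 41 genes in all) was at 0 only in OX, 0.0417% against 0.108%. Os01g0137800 (chr1:2029671-2034609, plus strand, 4939 bases) was seen only in NT Dongjin, with 35 and 34 counts. Presence in a single group asked for at least 10 counts in both its libraries and next to none elsewhere. It held for 1 non-coding locus (of 31 genes in all) in NT Dongjin, 0.0417% against 0.0819% of all genes. In OX it held for 2 (of 50 genes, 0.0835% against 0.132%), and in KD for 3 (of 11 genes, 0.125% against 0.0290%).

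Among loci that overlap a gene on the opposite strand, 80 pairs had both partners tested. In OX against NT Nakdong 2 of the 80 non-coding loci were called and none of them had a called partner. In KD against NT Dongjin 30 of the 80 loci and 30 of the 80 partners were called, close to the 37.6% of all genes, and 10 of the loci were called together with their partner, of which 5 changed in the same and 5 in the opposite direction. Os05g0196250 (plus strand, 9 exons, 835 shared bases) had 8 and 7 counts in KD, against 51 and 75 in NT Dongjin, while its partner Os05g0196200 had 832 and 759 counts in KD, against 76 and 88 in NT Dongjin. Os12g0115801 had 80 and 87 counts in KD, against 14 and 20 in NT Dongjin, and its partner Os12g0115700, for a chalcone isomerase domain protein, moved the same way with 2787 and 2430 counts in KD, against 205 and 303 in NT Dongjin. The most abundant non-coding only loci of this class were Os02g0157700 and Os01g0559900, which shared 15 and 333 bases with their partners. Os01g0559900 had 1311 and 1097 counts in OX, 1445 and 2082 in NT Nakdong, 1228 and 1265 in KD and 757 and 936 in NT Dongjin, and its partner had at most 2 counts in any library.

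Of the 3 regulated genes checked for an opposite-strand non-coding locus, only the flowering regulator MADS50 (Os03g0122600) had one. That locus, Os03g0122500, shares 402 bases with it and had 12 and 11 counts in OX, 13 and 11 in NT Nakdong, 16 and 15 in KD and 22 and 12 in NT Dongjin. MADS50 had 1702 and 1731 counts in OX, 1932 and 2100 in NT Nakdong, 1947 and 1909 in KD and 1595 and 2156 in NT Dongjin. Neither the locus nor MADS50 passed the test in either comparison. No non-coding locus lies opposite MYB60 (Os12g0175400), and the locus opposite PHO1;2 (Os02g0809800) carries another description.

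The locus that the study followed by quantitative PCR under the name NP, Os07g0559000 (chr7:22340365-22340788, plus strand, single exon of 424 bases), was near the detection limit here. It had 2 and 11 counts in OX, against 2 and 3 in NT Nakdong, a ratio of 3.09 with a 95% counting interval of 1.03 to 11.1. It had 8 and 4 counts in KD, against 0 and 7 in NT Dongjin, a ratio of 1.76 with an interval of 0.640 to 5.28. The values of both pairs of groups overlap, and the locus had too few counts to enter the test. From its RNA-seq values the study lists this locus among genes positively regulated by OsGRP3, higher in OX and lower in KD than in NT. In the deposited counts the OX ratio lay in the study's direction and the KD ratio in the other. The KD interval includes equal levels. The 2 primers of the assay, of 20 bases each, define which stretch of this RNA was measured and are given 5' to 3' in lower case, with no part singled out.
NP forward primer: ctgaagctttgctttggcgt
NP reverse primer: gagctcacgcttggattgga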

How the data were processed

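Poly(A) mRNA libraries from 8 leaf samples, stranded by the labels, were analysed, 2 per group. The authors aligned reads to IRGSP-1.0 and, per the file headers, ran StringTie 1.3.4d in its strand-aware mode (the methods name TopHat and a TruSeq RNA v2 kit, the headers HISAT and the labels a stranded kit). The deposited estimated counts are whole numbers, transcript coverage times length over read length, rounded up and summed per gene. The deposited FPKM and TPM are StringTie output of the authors; the deposited annotation files, with a TPM per transcript, gave strand, exons and shares. Estimated counts were tested in place of read counts with edgeR 4.0.16 (R 4.3.3; TMM scaling, filterByExpr, quasi-likelihood test, group means over 8 libraries). A call needed a 2-fold change and a Benjamini-Hochberg adjusted p under 0.05 over all genes. Alternatives used DESeq2 1.42.0, limma 3.58.1 on log2(FPKM + 1) or log2(FPKM + 0.1), other filters, the 3'-most exon, a replicate block and each library left out. The fits were also run on simulated counts with the same spread for every gene and no coverage difference between libraries. Such counts cannot show how the NT Dongjin difference or the spread between these libraries affects the calls. A log2 fold change of FPKM values understates the change of low genes.

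Named loci were the 10 with the highest TPM, up to 6 called rises and 6 falls per comparison with a log2 CPM of at least 1 and groups that do not overlap, the most abundant and the jointly called opposite-strand pairs, cultivar-specific loci, NP, and loci opposite 3 regulated genes; other loci are said to be chosen after their values were seen. The loci and lists were chosen with earlier results of these data known. With 0 counts in a group, the bound uses 3 counts over the group. Counting intervals cover counting error only.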

Additional observations from a re-analysis of the deposited data

How the results depend on the processing

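With 2 libraries per group, only large or steady differences can pass, and 1139 non-coding only loci had no count on which to judge. For OX against NT Nakdong the 14 calls became 8 with at least 10 counts in every library, 8 with the replicate block, 9 from the 3'-most exon and 35 with an unadjusted p, and ranged from 7 to 17 with a library left out. The block uses replicate numbers that do not pair the libraries (correlation of same-numbered deviations -0.049 for OX and -0.012 for KD); it kept 8 of the 14 and gave 278 calls for KD, 275 of them among the 298. For KD against NT Dongjin the 298 calls lay between 200 and 311 in all other settings, 257 to 311 with a library left out, and fell to 28 against NT Nakdong, an alternative chosen after seeing the data. Detected loci stayed within 1.5 times under the other definitions, as did the 1058 overlapping loci (1023 with at least 100 bases) and the cultivar-only loci. Of 48 named KD calls, 35 held in every setting they could enter but that comparison, and loci at 0 in a group could not enter the filter of 10 counts in every library; Os11g0526900 turned to 0.33 on the log2 scale from the 3'-most exon.

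Against NT Nakdong in place of NT Dongjin, the log2 fold change of KD changed sign for 20 named loci: Os01g0185350 (-0.31), Os01g0639900 (-0.36), Os01g0720500 (-0.38), Os01g0822900 (-0.37), Os02g0257400 (-0.0952), Os02g0750200 (-0.0694), Os02g0833950 (-0.25), Os03g0197050 (0.0599), Os03g0741050 (0.40), Os03g0781501 (-0.0431), Os04g0137201 (-0.36), Os04g0603601 (0.63), Os05g0196250 (0.0339), Os05g0296600 (-0.0731), Os06g0132450 (-0.52), Os06g0148200 (-0.43), Os06g0264800 (-0.16), Os09g0419100 (0.62), Os10g0164001 (-1.28), Os12g0550800 (-2.30).

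The cause of these changes was not tested.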
